A study of Mus musculus with 4 samples.

Results

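The 6 glutathione S-transferase genes *Gstm1*, *Gstm2*, *Gstp1*, *Gsta4*, *Gsto1* and *Gstt1* were followed across the cells of the mouse epididymis and vas deferens. They were chosen by name from the family, and all 6 are among the 16892 genes of the table. The data are 8880 single cells in 4 libraries, 1 each from the caput, corpus and cauda of the epididymis and from the vas deferens. The animals were male FVB/NJ mice of 10 to 12 weeks with no treatment, and, as the methods describe it, the organs of 4 mice were cut into segments and the 8 pieces of a segment were pooled into 1 library, so the libraries share their mice. The authors assigned every cell to 1 of 34 populations, which fall into 7 cell types: principal, clear, basal, muscle, stromal, endothelial and immune cells. Epithelial clusters of the vas deferens count as principal cells here. The paper grouped them so because, by shared markers, they appeared analogous to those of the epididymis. Contrasts of the vas deferens with the epididymis in principal cells therefore set such clusters of 1 organ against those of another. Each region was a single library of pooled animals, so no difference between regions has a replicate and none was tested.

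Glutathione S-transferases join the thiol of glutathione to electrophiles such as products of lipid peroxidation and foreign chemicals, which makes them more soluble and ready for export. The cytosolic enzymes are grouped by sequence into classes. *Gstm1* and *Gstm2* belong to the mu class, *Gstp1* to the pi class, *Gsta4* to the alpha class, *Gsto1* to the omega class and *Gstt1* to the theta class. Enzymes of the mu and alpha classes are dimers with broad conjugating activity, and the enzyme made from *Gsta4* is known for acting on 4-hydroxynonenal, a toxic aldehyde formed from oxidized lipids. Omega enzymes have a cysteine in the active site and work mostly as reductases. In the epididymis, sperm with membranes rich in polyunsaturated fatty acids are stored next to a secretory epithelium, and such enzymes are counted among its defences against oxidants. Principal cells are the secretory and absorptive majority of that epithelium. Clear cells acidify the lumen, and basal cells sit at the base of the epithelium.

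*Gstm1* (chromosome 3, 108012250 to 108017973, minus strand) and *Gstm2* (chromosome 3, 107981702 to 107986420, minus strand) lie in a cluster of 7 mu-class genes that spans 149 kb, with 25829 bases between them. *Gstp1* lies on chromosome 19 from 4035411 to 4037912 and *Gsto1* on the same chromosome from 47854973 to 47864790. *Gsta4* lies on chromosome 9 from 78191966 to 78209349, and *Gstt1* on chromosome 10 from 75783813 to 75798584. All positions are those of RefSeq on GRCm38.p6, the assembly of mm10 to which the authors aligned. Promoter windows of 300 bases, from 250 before to 50 after an annotated start, were found in RefSeq for 5 of the 6 genes. The windows of *Gstm1*, whose level in principal cells differed most along the duct, of its neighbour *Gstm2* and of *Gstp1*, the member highest in the corpus in both principal and basal cells, are printed 5′ to 3′ on the strand of the gene. Capitals mark matches, on either strand, to 5 motifs. The half-site of steroid receptors is AGAACA, or TGTTCT when reversed. The letters of the box bound by the TATA-binding protein are TATAAA. The box bound by Sp1 is spelled GGGCGG and the AP-1 site TGAGTCA. The core of the antioxidant response element is TGACNNNGC, where N is any base.
*Gstm1*, upstream start, chr3:108017924-108018223: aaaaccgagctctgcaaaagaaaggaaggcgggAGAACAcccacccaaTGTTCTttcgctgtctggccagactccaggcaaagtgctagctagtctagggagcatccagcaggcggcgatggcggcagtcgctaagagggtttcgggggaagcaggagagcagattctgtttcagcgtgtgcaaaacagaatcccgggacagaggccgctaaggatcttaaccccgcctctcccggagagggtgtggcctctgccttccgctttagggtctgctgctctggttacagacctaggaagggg
*Gstm1*, downstream start, chr3:108017769-108018068: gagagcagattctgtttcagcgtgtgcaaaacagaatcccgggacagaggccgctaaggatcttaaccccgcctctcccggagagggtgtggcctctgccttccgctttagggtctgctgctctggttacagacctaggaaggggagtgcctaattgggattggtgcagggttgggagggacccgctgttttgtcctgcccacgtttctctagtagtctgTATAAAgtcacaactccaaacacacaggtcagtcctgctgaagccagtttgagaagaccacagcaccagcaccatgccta
*Gstm2*, chr3:107986371-107986670: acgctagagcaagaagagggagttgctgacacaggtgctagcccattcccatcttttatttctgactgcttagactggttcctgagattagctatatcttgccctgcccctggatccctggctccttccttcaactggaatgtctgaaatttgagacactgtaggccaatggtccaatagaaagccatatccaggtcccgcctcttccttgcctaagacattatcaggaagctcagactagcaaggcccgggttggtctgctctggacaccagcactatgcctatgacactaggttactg
*Gstp1*, chr19:4037863-4038162: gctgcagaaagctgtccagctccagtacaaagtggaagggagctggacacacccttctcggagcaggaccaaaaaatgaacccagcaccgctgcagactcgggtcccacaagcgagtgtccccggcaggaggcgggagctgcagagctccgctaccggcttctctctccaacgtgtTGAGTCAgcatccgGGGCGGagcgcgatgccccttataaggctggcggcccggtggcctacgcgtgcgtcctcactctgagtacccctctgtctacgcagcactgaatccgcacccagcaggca

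The upstream *Gstm1* window held the receptor half-site in both orientations, at -217 and -202 from its start. The downstream *Gstm1* window held the TATA motif at -30. The *Gstm2* window held none of the 5 motifs. The *Gstp1* window held an AP-1 site at -74 and the GC box, as the Sp1 motif is called, at -60. Of all 32851 promoter windows, 19.0% held the half-site, 13.6% the TATA box, 35.7% the GC box, 5.20% the AP-1 site and 12.4% the antioxidant core. The antioxidant core was in no window of the 5 members. These are matches of letters and not measured sites.

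The table held 26639701 UMIs (unique molecular identifiers, each marking 1 captured RNA), between 4408989 and 10744928 per library, with medians of 1433 to 2207 UMIs per cell. In the 4 libraries, 2.80% to 4.48% of UMIs had been taken out by the authors as ambient RNA. Of 38 marker genes for the 7 types, 34 were highest in the type they mark. The exceptions included *Slc9a3*, at or near 0 in every type, *Itga6* and *Cd52*. Of 8837 barcodes, 43 occurred in more than 1 library. A level below divides the UMIs of 1 gene in a set of cells by all UMIs of those cells and is given per 1000000 UMIs (UPM). Its range is the exact 95% Poisson interval, and ratios carry exact conditional binomial intervals. Both cover counting error only, not differences between preparations or between groups of mice. The method tags the end of each RNA, so levels were not divided by gene length.

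**Figure D1:**
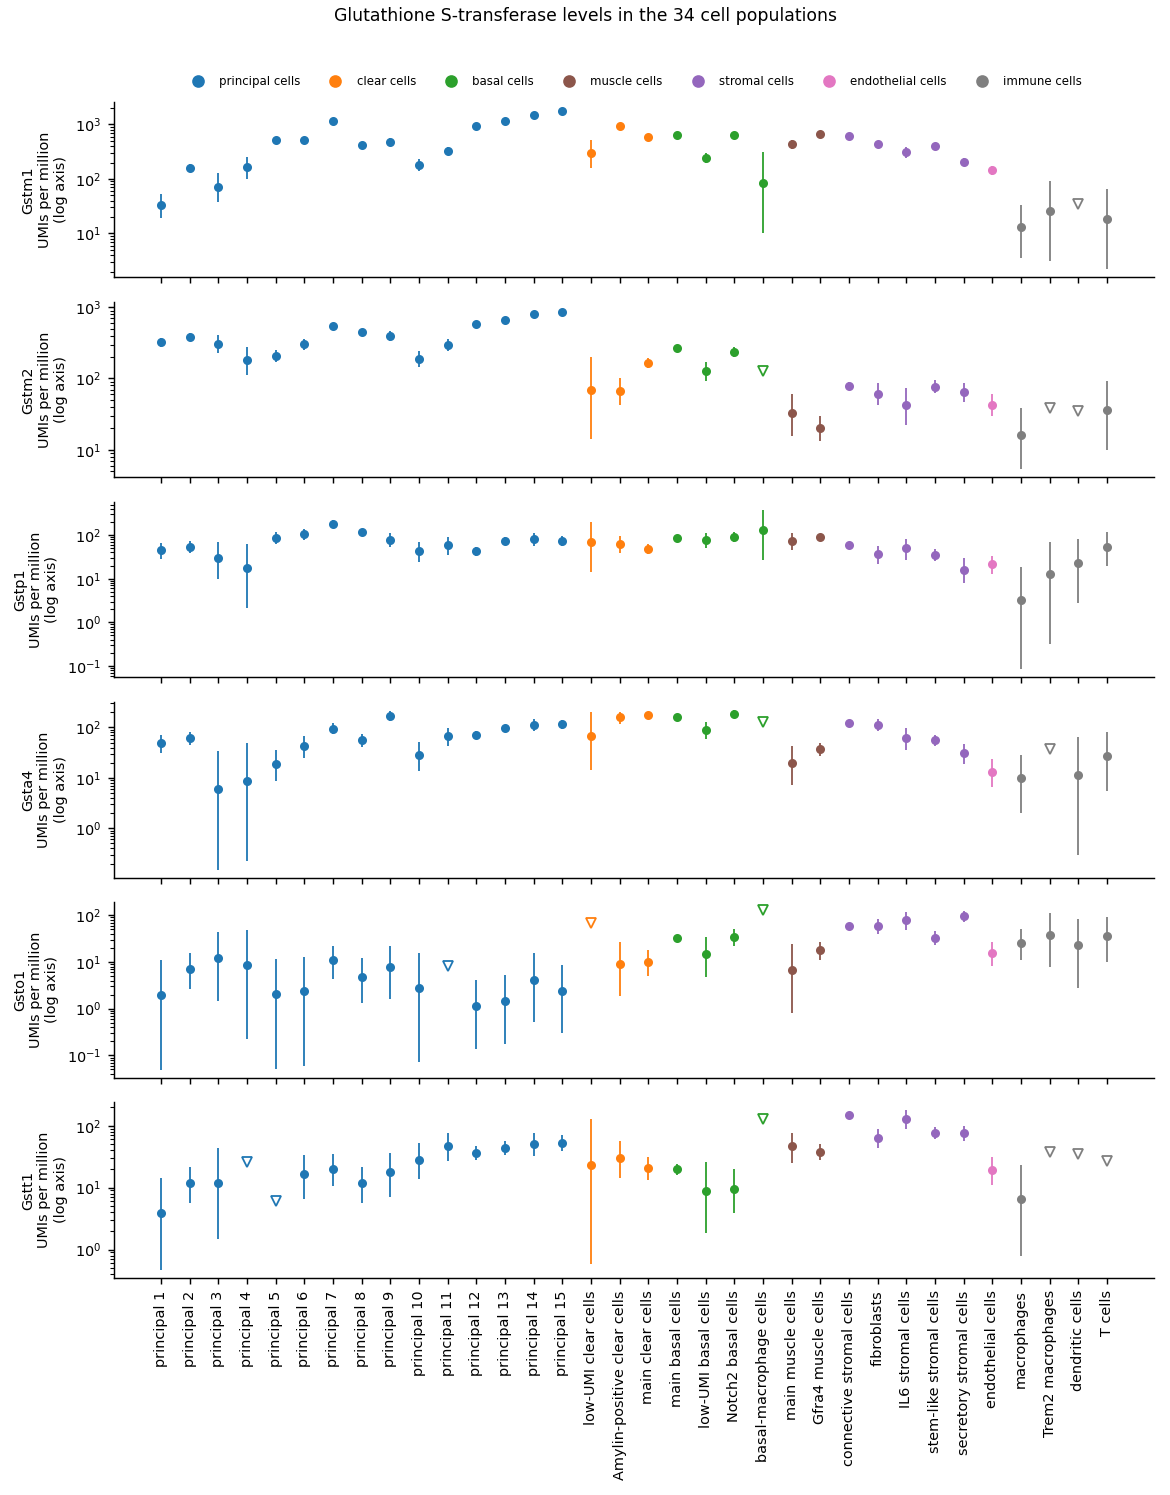
Level of each of the 6 genes (UMIs per 1000000, log axis) in the 34 cell populations, coloured by cell type. Bars are exact 95% Poisson intervals and open triangles mark the upper limit where no UMI was counted. Among principal populations *Gstm1* ran from 33.3 UPM in principal 1 to 1745 UPM in principal 15, *Gstm2* was highest in principal cells, and *Gsto1* and *Gstt1* were highest in stromal populations.

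*Gstm1*, a mu-class enzyme, had the most UMIs of the 6 genes, 16728, and ranked 232 among all genes. It was read in all 7 cell types, at 783 UPM in principal, 668 in clear, 625 in basal, 618 in muscle, 513 in stromal, 144 in endothelial and 13.7 in immune cells. Clear and basal cells did not differ beyond counting error (ratio 1.07, interval 0.996 to 1.15), nor did basal and muscle cells (1.01, 0.941 to 1.09). The step down from stromal to endothelial cells was 3.57-fold and that from endothelial to immune cells 10.5-fold (5.14 to 24.8).

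In principal cells *Gstm1* stood at 132 UPM (115 to 150), 802 (756 to 850), 368 (340 to 398) and 1172 (1141 to 1203) from caput to vas deferens. The level thus rose, fell and rose again along the duct, and no pair of the 4 intervals overlapped. The vas deferens exceeded the caput 8.90-fold (7.79 to 10.2) and the corpus 1.46-fold (1.37 to 1.56), and the corpus exceeded the cauda 2.18-fold (1.98 to 2.41). Among the 15 principal populations, principal 1, made up of caput cells alone, had 33.3 UPM from 17 UMIs, and principal 15, made up of vas deferens cells alone, had 1745 UPM from 1434 UMIs. The ratio was 52.4 (32.6 to 90.1). The 4 vas deferens populations stood at 929, 1161, 1466 and 1745 UPM from principal 12 to principal 15, and each interval lay clear of the next. Principal 7, mostly from the corpus, reached 1166 UPM, and did not differ from principal 13 beyond counting error (1.0, 0.920 to 1.10). Principal 7 exceeded principal 10, mostly from the cauda, 6.43-fold (4.98 to 8.44).

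Principal 11 is the 1 principal population with 100 or more cells in each of 2 libraries, 141 from the cauda and 100 from the vas deferens. Its *Gstm1* level was 232 UPM in the cauda cells and 555 UPM in the vas deferens cells, 2.39 times higher (1.64 to 3.50). *Gstm2* in the same cells was 177 and 593 UPM, 3.35 times higher (2.25 to 5.03). Cells of 1 population therefore differed between libraries in the same direction as the principal cells of those libraries as a whole.

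**Figure D2:**
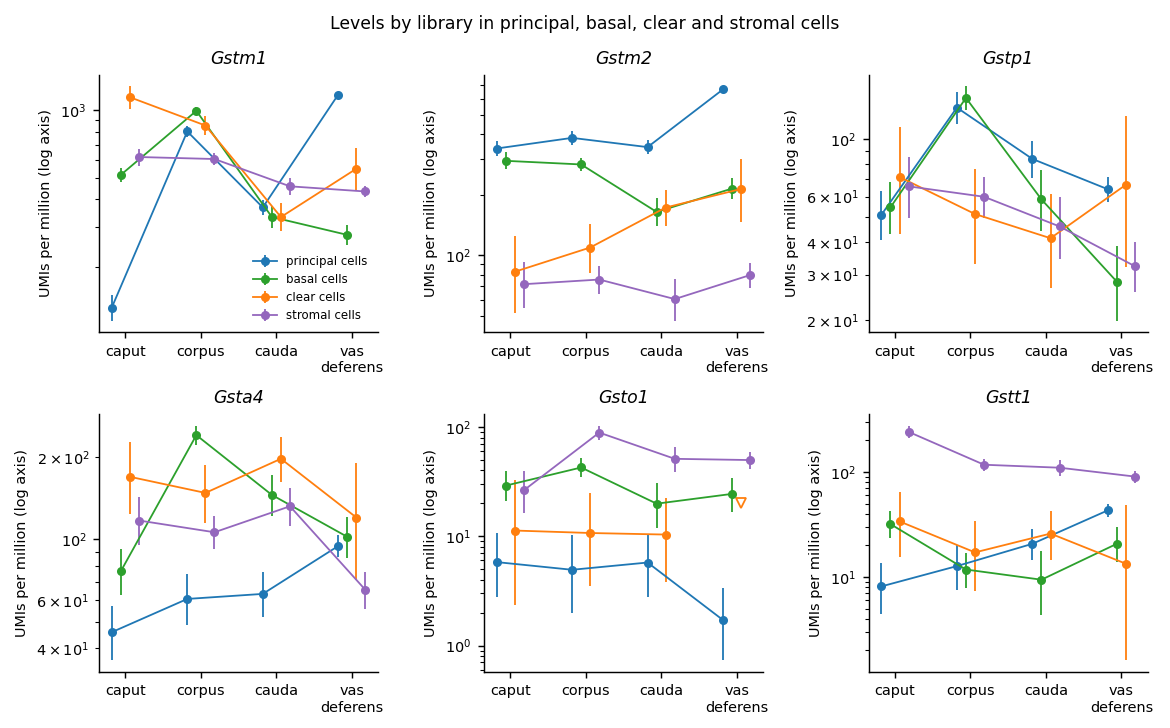
Level of each gene (UMIs per 1000000, log axis) in principal, basal, clear and stromal cells of the caput, corpus, cauda and vas deferens libraries. Points are 1 library each, bars are exact 95% Poisson intervals, lines only join points of 1 cell type, and the open triangle is the upper limit where no UMI was counted. *Gstm1* in principal cells was lowest in the caput, at 132 UPM, where it was highest in clear cells, at 1139 UPM.

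Outside principal cells the order of the libraries for *Gstm1* was different. In basal cells it had 514 UPM, 991, 334 and 278 from caput to vas deferens. The corpus was the highest and the vas deferens the lowest, 3.57-fold apart (3.20 to 3.99). In clear cells it had 1139 UPM, 852, 333 and 547 from caput to vas deferens, so that the caput exceeded the cauda 3.42-fold (2.84 to 4.12). In stromal cells it had 617, 604, 457 and 433 UPM in the same order, a spread of 1.42-fold. Endothelial cells had 431 UPM, 134, 53.5 and 72.6 from caput to vas deferens, the cauda value from 12 cells, and the caput exceeded the vas deferens 5.93-fold (3.82 to 9.36).

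These differences were also present within single populations. In main basal cells *Gstm1* was 3.69 times higher in the corpus than in the vas deferens (3.28 to 4.16), and in Notch2 basal cells 3.36 times (2.49 to 4.61). In main clear cells it had 1365 UPM in the caput and 341 in the cauda, a ratio of 4.00 (3.23 to 4.94). The Amylin-positive clear cells, found in the caput and corpus, exceeded the main clear cells 1.56-fold (1.36 to 1.79) when libraries were pooled. Within the caput they were lower, at 0.704 of the main clear cells (0.557 to 0.889), and within the corpus the ratio was 1.13 (0.922 to 1.39). The pooled ratio thus did not hold within either library.

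*Gstm2*, the neighbour of *Gstm1* and also a mu-class enzyme, was highest in principal cells and low outside the epithelium. By type it had 508 UPM in principal, 252 in basal, 140 in clear, 74.0 in stromal, 43.1 in endothelial, 23.0 in muscle and 15.5 in immune cells. Each step down to muscle cells was larger than counting error, and muscle and immune cells could not be told apart at this depth (ratio 1.48, 0.699 to 3.51). Of all *Gstm2* UMIs 67.6% came from principal cells, against 44.8% of those of *Gstm1*. In muscle cells *Gstm1* had 618 UPM where *Gstm2* had 23.0.

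In principal cells *Gstm2* had 339 UPM (312 to 368), 383 (352 to 417), 345 (318 to 374) and 669 (645 to 693) from caput to vas deferens. The epididymal libraries overlapped, and the vas deferens stood above the corpus by 1.74-fold (1.59 to 1.91). Its ratio over the caput was 0.98 on the log2 scale with UMIs pooled over cells and 1.92 with the mean over cells of each cell's own UPM. The populations ran from 183 UPM in principal 4 to 847 in principal 15, and principal 15 and principal 14 did not differ beyond counting error (1.06, 0.932 to 1.20). In caput principal cells *Gstm2* outnumbered *Gstm1*, 585 UMIs to 227, and in vas deferens principal cells the order was turned, 3131 UMIs to 5486. In basal cells *Gstm2* had 295 UPM, 283, 164 and 215 from caput to vas deferens, a spread of 1.80-fold (1.49 to 2.17). In clear cells it had 82.7 UPM, 109, 173 and 214 from caput to vas deferens. The caput, the highest library of *Gstm1* in clear cells, was thus the lowest of *Gstm2*. Of the 38 clear cells of the vas deferens 13 were called doublets, and of the 73 of the caput 0. Without called doublets *Gstm2* passed a 4-fold spread between libraries in clear cells. The levels in that setting are not given, nor is the share of all genes. The order of libraries above therefore holds only with the called doublets kept. Among clear cells, those of the vas deferens also held the most RNA of genes that mark principal cells, as given below. The part of this RNA in their *Gstm1* and *Gstm2* levels was not tested.

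*Gstp1*, the only pi-class gene among the 6, was read at 85.9 UPM in muscle, 85.2 in basal, 75.5 in principal, 52.7 in clear, 47.5 in stromal, 21.5 in endothelial and 17.2 in immune cells. Muscle and basal cells did not differ beyond counting error (1.01, 0.826 to 1.22). Along the duct it was highest in the corpus in both principal and basal cells. Principal cells had 51.1 UPM, 133, 83.9 and 64.1 from caput to vas deferens, the corpus 2.60 times the caput (2.00 to 3.38). Basal cells had 54.6, 144, 58.5 and 28.1 UPM in the same order, the corpus 5.14 times the vas deferens (3.67 to 7.38). Principal 7 had the highest *Gstp1* level of the populations, 182 UPM, 4.03 times that of principal 1 (2.56 to 6.61). In stromal cells the caput had 65.8 UPM, 2.04 times the 32.3 UPM of the vas deferens (1.42 to 2.90).

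The *Gstp1* values rest on a part of its reads. Of the words of 50 bases in the last 500 bases of its GENCODE transcript, 75.2% also occur in *Gstp2* or in the pseudogene *Gstp-ps*, and the authors dropped reads that mapped to several places. The level of *Gstp1* may therefore be understated, which makes its place among the 6 genes and its part in sums over the family uncertain. *Gstp2* had 155 UPM in corpus principal cells and 176 UPM in corpus basal cells, also its highest libraries in those types. For *Gstm1* and *Gstm2* the shared part was 0.887% and 3.10%, and for *Gsta4*, *Gsto1* and *Gstt1* no word was shared.

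*Gsta4*, the alpha-class enzyme for lipid aldehydes, was highest in clear cells, at 168 UPM, and in basal cells, at 158 UPM, which did not differ beyond counting error (1.07, 0.922 to 1.23). Stromal cells had 96.5 UPM, principal cells 75.1, muscle cells 34.1, endothelial cells 13.2 and immune cells 12.0. Basal cells of the 4 libraries had 76.5 UPM (62.8 to 92.4), 240 (221 to 260), 145 (122 to 172) and 102 (85.8 to 121) from caput to vas deferens. The corpus was 3.14 times the caput (2.55 to 3.89) and above all other libraries. In main basal cells alone the corpus was 3.65 times the caput (2.89 to 4.65). In principal cells the order was different, with 45.8, 60.6, 63.2 and 94.6 UPM from caput to vas deferens, where only the vas deferens lay clear of its neighbour (1.5, 1.21 to 1.86). Principal 9 reached 171 UPM, 6.02 times principal 10 (3.08 to 13.1), and both are mostly cauda cells. Clear cells ran from 120 to 197 UPM, and their highest and lowest libraries did not differ beyond counting error (1.64, 0.992 to 2.86).

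*Gsto1*, the omega-class reductase, had the fewest UMIs of the 6 genes, 683, and was highest in stromal cells. Its levels were 58.9 UPM in stromal, 32.0 in basal, 29.2 in immune, 15.7 in muscle, 15.6 in endothelial, 9.58 in clear and 3.66 in principal cells. Stromal cells exceeded basal cells 1.84-fold (1.54 to 2.19), while basal and immune cells (1.10, 0.668 to 1.92) and immune and muscle cells (1.86, 0.936 to 3.60) were not separated. Stromal cells had 26.3 UPM, 88.9, 51.1 and 49.8 from caput to vas deferens, the corpus 3.38 times the caput (2.16 to 5.53). In connective stromal cells alone the corpus, at 93.2 UPM, was 3.37 times the caput (2.13 to 5.59) and 4.36 times the vas deferens (2.48 to 8.37). In the vas deferens the secretory stromal cells held 97.7 UPM from 64 UMIs, against 21.4 in connective stromal cells (0.219 for connective over secretory, 0.111 to 0.401). The 5 other genes ran the other way, with connective over secretory ratios of 3.68 for *Gstm1*, 3.54 for *Gsta4*, 3.02 for *Gstp1*, 1.89 for *Gstt1* and 1.57 for *Gstm2*, and each interval lay above 1. In principal cells only 35 UMIs were counted in 4 libraries, at 5.80, 4.93, 5.75 and 1.71 UPM from caput to vas deferens.

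*Gstt1*, a theta-class enzyme, was also highest in stromal cells. It had 122 UPM in stromal, 39.3 in muscle, 28.2 in principal, 23.3 in clear, 19.2 in endothelial, 18.0 in basal and 3.44 in immune cells, and stromal cells exceeded muscle cells 3.09-fold (2.38 to 4.09). Stromal cells had 242 UPM (209 to 277), 117 (103 to 133), 110 (91.8 to 131) and 90.5 (79.1 to 103) from caput to vas deferens. The caput stood above the other libraries, and the corpus and cauda overlapped. Within connective stromal cells the caput, at 245 UPM, was 2.03 times the corpus (1.66 to 2.49) and 1.73 times the vas deferens (1.34 to 2.27). The vas deferens, at 141 UPM, was not the lowest library in these cells. In principal cells the direction along the duct was the opposite, with 8.12 UPM, 12.7, 20.7 and 43.1 from caput to vas deferens, from 14, 18, 36 and 202 UMIs. The vas deferens exceeded the caput 5.31-fold (3.09 to 9.89), a log2 ratio of 2.41, which was 1.70 with the deposited size factors and 1.96 with the mean over cells, both under a 4-fold difference. Within the caput, stromal cells had 29.7 times the *Gstt1* level of principal cells (17.3 to 55.4), and within the vas deferens 2.10 times (1.73 to 2.55).

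Counted by a fixed rule, that the highest library held at least 20 UMIs and at least 4 times the level of the lowest, 2 of the 6 genes differed between libraries in principal cells, *Gstm1* and *Gstt1*. The rule called 28.8% of the 9122 genes with enough UMIs, so the members stood near that background, and *Gsto1* had too few UMIs. Both called genes were highest in the vas deferens. Without the caput library 0 members were called, and without the vas deferens library 1, *Gstm1*. With the mean over cells *Gstm1* alone was called. The share of 28.8% holds for the 4 libraries with UMIs pooled. Shares of all genes under the other settings are not given, so the lower counts are no result about the members. The median ratio of highest over lowest library was 2.60 over these 5 members and 2.52 over all genes with enough UMIs. In basal cells 1 of 6 was called, *Gstp1*, where 13.2% of genes were. In clear cells 0 of the 3 members with enough UMIs were called, where 12.3% of genes were (1, *Gstm2*, without the called doublets), and in stromal cells 0 of 6, where 16.7% of genes were. By a second rule, a population with at least 20 UMIs at 4 times the median of the 34 populations, 4 of the 6 genes were called, against 48.9% of the 11614 genes with enough UMIs. *Gstm1* was called in principal 15, *Gstm2* in principal 14 and principal 15, *Gsto1* in the connective, fibroblast, IL6 and secretory stromal populations, and *Gstt1* in the connective and IL6 stromal populations. *Gstm1* reached the threshold narrowly, at 4.21 times its median, and *Gstp1* and *Gsta4* missed it, at 3.13 and 3.19 times.

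To see how many cells of a population held each transcript, cells were thinned to 1000 UMIs, which kept 5703 of the 8880 cells and left out the shallower ones. *Gstm1* was then found in 71.1% of principal 15 cells (63.4 to 78.0, n = 159 cells), in 58.0% of principal 7 cells (48.6 to 67.0, n = 119) and in 1.22% of principal 1 cells (0.0309 to 6.61, n = 82). Without thinning these shares were 55.1%, 35.9% and 5.56%. Macrophages, which had the lowest level of *Gstm1* among populations with 50 or more cells, gave 2.25% (0.273 to 7.88, n = 89) and 1.92% without thinning, and the thinned interval overlapped that of principal 1. Of the 104 macrophages 4 were from the caput, so they give no background for that library. For *Gstm2* the shares were 59.1% for principal 15, 19.5% for principal 1 and 2.25% for macrophages. *Gstt1* was found in 13.9% of connective stromal cells (11.7 to 16.3, n = 879) and in 0 of 82 principal 1 cells, which at this depth limits the cells with a UMI to 3.66% and says nothing of cells that express the gene below it. Without thinning the shares were 37.2% and 1.39%, and macrophages had 0 of 89 thinned cells and 1.92% without thinning. *Gsto1* was found in 7.03% of secretory stromal cells (3.79 to 11.7, n = 185) and 2.25% of macrophages, which without thinning were 19.5% and 5.77%. Thinned to 500 UMIs, *Gstt1* was found in 5.45% of connective and *Gsto1* in 2.46% of secretory stromal cells, so these shares depend on depth.

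The spread of a transcript over the cells of a population was described by the variance of the thinned counts over their mean, which is 1 for random capture from like cells. Of 17 pairs of a member and a population with a mean of at least 0.5 UMIs, 13 of *Gstm1* and 4 of *Gstm2*, 0 reached a ratio of 2, where 27% of the 7631 pairs over all genes did. The ratios ran from 0.939 to 1.78, with a median of 1.44 against 1.52 over all pairs. In principal 15 the ratio was 1.72 for *Gstm1* and 1.05 for *Gstm2*, and in principal 14 it was 1.62 and 0.939. *Gstm2* was thus close to 1 in these populations while *Gstm1* was above it. This uses 1 draw of the thinned counts and has no error from replicates.

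**Figure D3:**
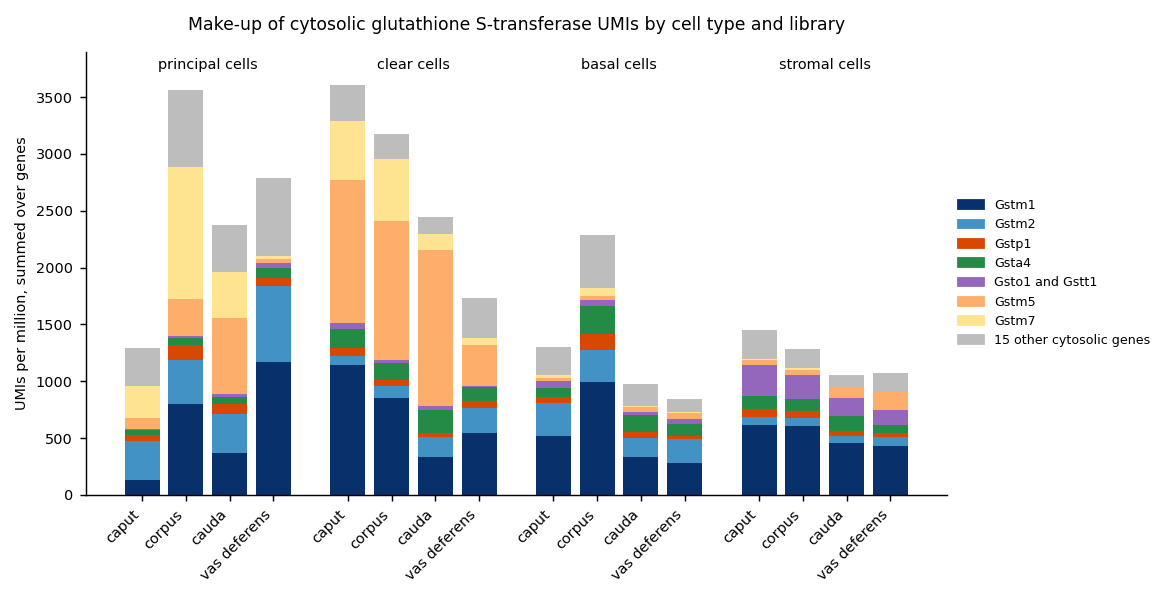
UMIs per 1000000 of cytosolic glutathione S-transferase genes, stacked by gene, in principal, clear, basal and stromal cells of each library. The 6 members fill 73.3% of the bar of vas deferens principal cells, and *Gstm5* and *Gstm7* fill much of those of clear cells and of corpus and cauda principal cells.

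The 6 genes were then set against the other cytosolic glutathione S-transferase genes, 17 of which were in the table. The members made up 77.3% of the cytosolic glutathione S-transferase UMIs in stromal cells, 75.8% in basal, 73.7% in muscle, 66.3% in endothelial, 57.6% in principal, 37.7% in clear and 27.0% in immune cells. In principal cells their share from caput to vas deferens was 44.9%, 39.2%, 37.3% and 73.3%. The gene with most UMIs changed along the duct, from *Gstm2* in the caput (26.2% of the family) to *Gstm7* in the corpus (32.4%), *Gstm5* in the cauda (28.3%) and *Gstm1* in the vas deferens (42.0%). In principal 1 and principal 2 the first was *Gstm2*, in principal 3 to principal 7 *Gstm7*, in principal 8 to principal 11 *Gstm5* and in principal 12 to principal 15 *Gstm1*. The total of the family was lowest in caput principal cells, at 1295 UPM, and highest in those of the corpus, at 3559 UPM, with 2374 for the cauda and 2789 for the vas deferens. The clear cells of the epididymal libraries were led by *Gstm5*, with 1260, 1219 and 1371 UPM from caput to cauda.

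**Figure D4:**
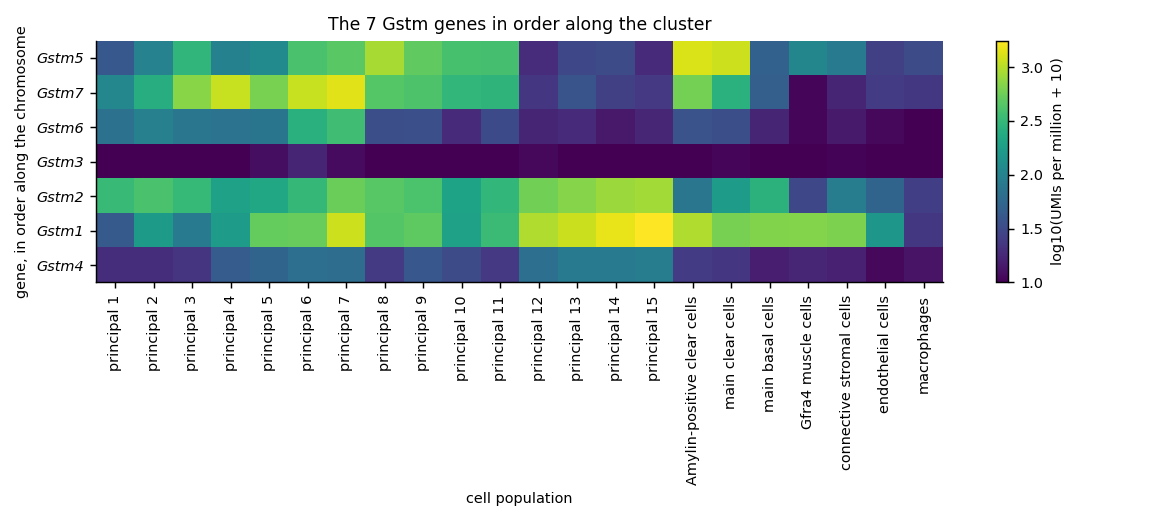
Levels of the 7 mu-class genes, in their order along chromosome 3, in the 15 principal populations and 7 other populations, as log10 of UMIs per 1000000 plus 10. With libraries pooled, *Gstm7* was highest in principal 7, at 1382 UPM, and *Gstm1* in principal 15, at 1745 UPM. *Gstm5* was highest in Amylin-positive clear cells, at 1296 UPM, against 1198 UPM in clear cells as a whole.

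Within the mu-class cluster, some neighbouring genes were highest in the same population and others were not. *Gstm5*, at one end of the cluster, was highest in Amylin-positive clear cells (1296 UPM) with libraries pooled, against 1198 UPM in clear cells as a whole. Its level in the clear cells of the cauda, given above, was higher still, and the cauda held 0 Amylin-positive cells. *Gstm7* and *Gstm6*, which follow it, were both highest in principal 7 (1382 and 346 UPM). *Gstm3* had 16 UMIs in all cells. *Gstm2*, *Gstm1* and *Gstm4*, at the other end, were each highest in principal 15, at 847, 1745 and 77.9 UPM. In vas deferens principal cells *Gstm7* had 34.8 UPM and *Gstm5* 26.9, against 1155 and 330 in those of the corpus. Of the 17 other cytosolic genes, 13 had enough UMIs for the 4-fold rule in principal cells and 8 were called, where 28.8% of all genes were. Of the 8 called, 4 were highest in the vas deferens (*Gsta1*, *Gsta2*, *Gstt2* and *Gstm4*), 2 in the corpus (*Gstm6* and *Gstm7*) and 2 in the cauda (*Gsta3* and *Gstm5*). *Gsta1* and *Gsta2* share 90% and 51.0% of the words near their ends with other genes, so their division is uncertain.

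The genes whose level over the 34 populations was most like that of each member were found by Pearson's correlation of log2(UPM + 10), among genes with at least 200 UMIs. They were *Tsen34*, *Phpt1* and *Ptov1* for *Gstm1* (r from 0.826 to 0.873), *Dcaf11*, *Tubb2b* and *Tmem238* for *Gstm2* (0.859 to 0.874), and *Gstp2*, *Polr3e* and *Cdc37l1* for *Gstp1* (0.703 to 0.840). They were *Mrps6*, *Tmem29* and *Ap2b1* for *Gsta4* (0.767 to 0.80), *Gypc*, *Eif4e3* and *Socs1* for *Gsto1* (0.815 to 0.835), and *Il11ra1*, *Maob* and *Tbx3* for *Gstt1* (0.826 to 0.847). The populations share libraries and depth, and with rank correlation at most 1 of each 3 names was kept, so the names depend on the measure. Among the members, *Gstm1* and *Gsta4* had the highest correlation (0.709) and *Gstm2* and *Gsto1* the lowest (-0.440).

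In the pathway around these enzymes, glutathione is made by glutamate-cysteine ligase (*Gclc* and *Gclm*) and glutathione synthetase (*Gss*), and its conjugates leave the cell by transporters such as those of the *Abcc* family. Of 18 genes of glutathione supply and recycling, 14 had enough UMIs in principal cells and 4 were called by the 4-fold rule, *Ggct*, *Ggt1* and *Ggt7* highest in the caput and *Oplah* highest in the vas deferens. In basal cells 1 of 10 was called, in clear cells 0 of 4 and in stromal cells 4 of 9. Over all genes with enough UMIs the same rule called 28.8% in principal, 13.2% in basal, 12.3% in clear and 16.7% in stromal cells, and the counts of the lists that follow are to be read beside these shares. By level the highest were *Glrx*, a glutaredoxin (714 UPM in basal cells), *Slc3a2*, a subunit of amino acid transporters (706 in endothelial cells), *Gclm* (519 in basal cells), *Gclc* (224 in clear cells) and *Dpep1*, a dipeptidase (200 in stromal cells). *Gclm* had 127 UPM in principal cells, where *Gstm1* had 783. Of 6 genes of conjugate export, 2 of 5 with enough UMIs were called in principal cells (*Abcc3* and *Abcc4*) and 2 of 4 in clear cells (*Abcc1* and *Abcc4*), and *Abcc1*, which exports glutathione conjugates, was highest in clear cells, at 114 UPM. Of 6 genes tied to the oxidant-sensing factor Nrf2, 3 of 6 were called in principal cells (*Nqo1*, *Txnrd1* and *Srxn1*), 2 of 6 in basal cells, 2 of 4 in clear cells and 0 of 6 in stromal cells.

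RNA carried from principal cells into other droplets was gauged beside these values with 25 genes that mark principal cells. Their summed level in stromal cells was 0.530% to 1.41% of that in the principal cells of the same library, in basal cells 2.24% to 5.47%, and in clear cells 0.894% to 3.07% in the epididymis and 13% in the vas deferens. In stromal cells *Gstm1* stood at 37.0% to 468% and *Gstm2* at 11.9% to 21.1% of the principal level of their library, above the marking genes in every library. In basal cells *Gstm1* stood at 23.7% to 390% and *Gstm2* at 32.1% to 86.9%. In the clear cells of the epididymis *Gstm1* stood at 90.6% to 865% and *Gstm2* at 24.4% to 50.1%. In the clear cells of the vas deferens, where the marking genes had their highest share, *Gstm1* stood at 46.7% and *Gstm2* at 31.9%. How much of these vas deferens values was RNA of principal cells was not tested. In the immune cells of the vas deferens *Gstm1* stood at 1.52% and *Gstm2* at 3.11%, where the marking genes stood at 0.947%. *Gstm1* in immune cells rested on 8 UMIs in 4 libraries. The authors had already removed ambient RNA from these counts, so the levels of the marking genes are what remained. That removal need not have taken the same part of every gene, so the comparison sets no bound on carried RNA in the members.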

How the data were processed

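Single cells of the caput, corpus and cauda epididymidis and of the vas deferens were captured by a 3′ droplet method, 1 library per region, so regions have no replicates and no p-value was computed. According to their methods, the authors aligned reads to mm10 with HISAT2 2.0.4, counted UMIs per RefSeq gene without multimapped reads, removed ambient RNA and kept cells by their UMIs. The deposited values are these corrected whole-number counts per cell, with each cell's library and population assigned by the authors. The size factor that the authors deposited for each cell is a score and served only in an alternative. Counts were summed over cells of a population or type and divided by its total, in Python 3.11.15 with numpy 2.4.6, scipy 1.17.1 and pandas 2.3.3. Intervals have a 95% level and cover counting error only, and where no UMI was counted the limit is 3 UMIs. Doublets were scored per library against simulated doublets, and the highest-scoring cells at an expected rate of 0.8% per 1000 cells were called, 178 in all, so their number was set by that rate. They stayed in the main values. All 6 members were named, and for each other list its counts and up to 5 genes of the highest level. The calling rules were tested on simulated data. The members and lists were chosen with earlier results of these data known. Alternatives changed fold and UMI minimums, cells, libraries, thinning and the averaging over cells.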

Additional observations from a re-analysis of the deposited data

Results flagged for a closer look

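*Gstm1* in basal cells stood above principal cells in the caput, by 1.964 on the log2 scale, and below them in the vas deferens, by a log2 ratio of -2.078. *Gstt1* did likewise, with a log2 ratio of basal over principal cells of 1.973 in the caput but -1.137 and -1.058 in the cauda and vas deferens. Both were picked out because the ratio took opposite signs in different libraries at 2-fold or more. The difference between libraries was not tested, since each region is 1 library. In the cauda the *Gstt1* value in basal cells rested on 9 UMIs.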

How the results depend on the processing

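No paired analysis was possible because each region has 1 library and the results come from no test. In principal cells 2 members were called at the 4-fold rule, against 4 at 2-fold (66.7% of genes with enough UMIs), 1 at 8-fold (16.4%), 1 with the mean over cells, 0 without the caput library and 1 without the vas deferens library. In basal cells 1 was called, against 5 at 2-fold (43.6% of genes), 0 at 8-fold (5.33%) and 0 with the mean over cells. In clear cells 0 were called, against 2 at 2-fold (45.3% of genes) and 1 without called doublets, and in stromal cells 0, against 4 at 2-fold (48.7% of genes). The counts with other cells, libraries or averaging have no share of all genes beside them. Of the 4 members enriched in a population, 1 passed at 8-fold, *Gsto1*, at 9.86 times its median. The share of all genes that passed this rule at 8-fold is not given, so the count has no background. At a variance over the mean of 1.5, 7 of the 17 pairs passed, where 51.7% of all pairs did. The log2 ratio of basal over principal cells for *Gstm2* in the caput was -0.20, and 0.17 with the mean over cells, the 1 direction that turned among 24 such ratios under 3 alternatives each. With the deposited size factors the vas deferens over caput log2 ratio was 1.47 for *Gstm2* and 1.70 for *Gstt1*, against 0.98 and 2.41. The causes were not tested. Depth limits values that rest on few UMIs, such as every member in immune cells (2 to 17 UMIs) and *Gsto1* in clear (14) and endothelial cells (13).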

Other observations

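Among the other glutathione S-transferase genes, *Hpgds*, which makes prostaglandin D2, led the family in immune cells as a whole, at 160 UPM against 0.418 UPM in principal cells. Its highest population was Trem2 macrophages, at 433 UPM. In T cells, with 38 UMIs of the family, *Gstm5* had the most. The microsomal *Mgst1*, a membrane enzyme, had 304 UPM in basal cells and 226 UPM in principal cells as a whole. Its highest population was principal 4, at 1443 UPM. *Gsta3*, of the alpha class, had 201 UPM in the basal cells of the corpus and 53.9, 87.8 and 25.2 UPM in those of the caput, cauda and vas deferens.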
